A study of Homo sapiens with 2 samples.

Results

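The heat shock chaperones described here are 10 genes, HSPA1A, HSPA1B, HSPA6, HSPH1, DNAJB1, HSP90AA1, HSPB1, HSPA8, BAG3 and HSPD1, chosen by symbol from the 36601 genes counted in each library. All 10 symbols were found, once each. They were measured in sorted single cells of human inner ear organoids on day 40, with 1 library of GelNB-CH organoids and 1 of Matrigel organoids. The first gel is built from chemically modified gelatin, and the second is a basement membrane extract from a mouse tumour. Both came from 1 line, WA25 human embryonic stem cells with a tdTomato marker in the nucleus under the control of SOX2, which otic and neural progenitors transcribe. The organoids were dissociated in Accutase at 37 C for 90 min and the tdTomato-positive cells were sorted and loaded. One growth text, attached to each library alike, has aggregates put into GelNB-CH on day 11 with 0.1 wt% PEG4SH and given oDex at 0.02% on day 15. How the Matrigel organoids were embedded was thus not stated in the labels.

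The genes were chosen with earlier values of these same libraries in view, and there is 1 library per group. Their values therefore describe these 2 libraries, no test of a difference between the hydrogels was possible, and intervals in parentheses are exact 95% intervals that cover counting error only. The values are counts of unique molecular identifiers (UMIs), each standing for 1 captured RNA molecule. They are given as CPM, the UMIs of a gene scaled to a common total for the same cells. The kept cells numbered 18253 in GelNB-CH and 9800 in Matrigel, with medians of 8558 and 14001.5 UMIs per cell, so more UMIs were counted per Matrigel cell. The mitochondrially encoded share of UMIs had a median of 2.46% in GelNB-CH cells and 2.25% in Matrigel cells. The 2 libraries shared 78 cell barcodes, 0.359% of those in GelNB-CH and 0.715% of those in Matrigel.

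Heat shock chaperones bind unfolded proteins and help them refold. When unfolded protein accumulates, heat shock factor 1 (HSF1) forms trimers, enters the nucleus and binds heat shock elements, inverted repeats of the unit GAA spaced by any pair of bases. Some chaperone genes, such as HSPA1A, HSPA6 and DNAJB1, are transcribed weakly until HSF1 binds and are called inducible, while others, such as HSPA8, HSP90AA1 and HSPD1, are also transcribed steadily in growing cells. The same genes respond to tissue dissociation as well as to heat, and the cells here were released by enzyme at 37 C before capture.

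The stretches of promoter that hold such elements are shown for the 4 genes of the inducible kind and for HSP90AA1 and HSPA8, whose levels are set against them. They come from the 250 bases before each RefSeq start (GRCh38.p14), and capitals mark matches to GAANNTTC or TTCNNGAA, with overlapping matches run together. DNAJB1 has 3 RefSeq starts and HSP90AA1 has 2, and for both the second is shown, the only one with a match. HSPA6 and HSPA8 hold further matches outside the stretch.
HSPA1A, chr6:31815425-31815456, plus strand: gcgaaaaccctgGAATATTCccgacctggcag
HSPA1B, chr6:31827621-31827652, plus strand: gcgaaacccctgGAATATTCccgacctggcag
HSPA6, chr1:161524454-161524490, plus strand: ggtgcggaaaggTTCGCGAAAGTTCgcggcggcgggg
DNAJB1, chr19:14518425-14518486, minus strand: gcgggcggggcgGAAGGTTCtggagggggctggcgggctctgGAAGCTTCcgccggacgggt
HSP90AA1, chr14:102087104-102087133, minus strand: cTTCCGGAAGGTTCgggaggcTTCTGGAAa
HSPA8, chr11:123062171-123062199, minus strand: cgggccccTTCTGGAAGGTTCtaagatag
HSPB1 and HSPD1 also held a match, and no match lay in the windows of HSPH1 and BAG3, so 8 of the 10 genes had at least 1. Among 35116 promoters of the same length, 11.6% held one. Such shares count single windows, whereas the 10 genes had 14 windows and a gene counted if any of its windows matched. The longer form with 3 units, GAANNTTCNNGAA or TTCNNGAANNTTC, lay before HSPA6, HSP90AA1, HSPA8 and HSPD1, against 0.441% of all promoters. Inducible and steadily transcribed genes were thus not separated by this form, and a match is a run of letters, not a measured binding site.

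HSPA1A and HSPA1B, on chromosome 6 at 31815464-31817946 and 31827735-31830255 (GRCh38, GENCODE v29), encode the main inducible HSP70 and lie next to each other. Of the 50-base windows along the HSPA1A transcript, 72.6% occur in HSPA1B as well, but only 22.2% of those in its last 500 bases, where the assay reads. For HSPA1B the shares were 71.4% and 1.11%. Reads that match both cannot be placed, so the split between these genes is uncertain. HSPA6, an HSP70 that is nearly silent without stress, shared 45.5% of its windows with another annotated gene, and 15.7% in its last 500 bases.

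Over all kept cells, each of the 10 genes had a higher CPM in GelNB-CH than in Matrigel, as did 44.3% of all genes tested. The ratios ran between 1.17 for HSPB1 and 3.78 for HSPA6. Of the 10, 6 were higher in GelNB-CH by at least 1.5-fold, where 2.78% of the 10568 genes with a CPM of at least 10 in either library were. Past 2-fold were HSPA1A and HSPA6, 2 of 10, where 0.71% of all genes were. Since the genes were picked from this contrast, nothing is read from these counts. The 6 were the 4 inducible genes, HSPH1 and HSP90AA1.

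HSPA1A stood at 184 CPM in GelNB-CH against 73.6 CPM in Matrigel, a ratio of 2.50 (2.44 to 2.55). HSPA6 was the scarcest, with 1912 UMIs in GelNB-CH and 430 UMIs in Matrigel, or 10.4 and 2.74 CPM. DNAJB1, the J protein that hands unfolded clients to HSP70, was at 102 CPM in GelNB-CH against 57.5 CPM in Matrigel (1.78-fold). HSPH1, an HSP110 that exchanges nucleotide on HSP70, was at 107 CPM in GelNB-CH against 60.0 CPM in Matrigel (1.79-fold). HSP90AA1, the inducible HSP90 of the cytosol and the most abundant of the 10, was at 1268 CPM in GelNB-CH against 794 CPM in Matrigel (1.60-fold). The remaining genes differed less. HSPA8, the HSP70 that cells make constantly, was 1.40-fold higher in GelNB-CH, BAG3, a co-chaperone that links HSP70 to autophagy, 1.24-fold, HSPD1, the chaperonin HSP60 of mitochondria, 1.19-fold, and HSPB1, the small heat shock protein HSP27, 1.17-fold.

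The cells were divided into classes by clustering without any chaperone gene and naming the clusters from marker lists. The classes compared, each with over 100 cells per library, were otic epithelium-like (6112 GelNB-CH and 2442 Matrigel cells), mesenchyme or cartilage-like (7626 and 3458), Schwann or satellite glia-like (1270 and 2490), neuron-like (1233 and 846) and central nervous system (CNS) progenitor-like (564 and 118). The clusters are statistical groups and the names rest on markers alone. Ratios within a class do not depend on how many cells of each class a library holds.

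The inducible genes differed between libraries by class, while HSP90AA1, HSPH1 and HSPA8 were higher in GelNB-CH in all 5. HSPA1A was 7.45-fold higher in GelNB-CH in CNS progenitor-like cells (counting interval from 6.22 upward), 4.92-fold in Schwann or satellite glia-like cells (4.66 to 5.19), 4.88-fold in neuron-like cells and 2.61-fold in otic epithelium-like cells. In mesenchyme or cartilage-like cells, the most numerous class, the ratio was 1.15 (1.10 to 1.19), and it was 0.903 (0.854 to 0.956) when only cells of 8000 to 16000 UMIs were compared. HSPA1A thus had no direction in this class that held at matched depth. In cells of that depth the ratios of the other classes were 5.22 in CNS progenitor-like, 3.69 in Schwann or satellite glia-like, 3.47 in neuron-like and 2.26 in otic epithelium-like cells.

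The HSPA1A levels behind these ratios varied mostly within GelNB-CH. There HSPA1A stood at 554 CPM in CNS progenitor-like cells, 509 CPM in neuron-like cells, 318 CPM in Schwann or satellite glia-like cells, 191 CPM in otic epithelium-like cells and 87.7 CPM in mesenchyme or cartilage-like cells, a span of 6.32-fold. In Matrigel it stood at 74.4 CPM in CNS progenitor-like cells, 104 CPM in neuron-like cells, 64.6 CPM in Schwann or satellite glia-like cells, 73.4 CPM in otic epithelium-like cells and 76.6 CPM in mesenchyme or cartilage-like cells, a span of 1.61-fold. The counting intervals of the Matrigel CNS progenitor-like, otic and mesenchyme or cartilage-like levels overlapped, so these 3 had no order.

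**Figure D1:**
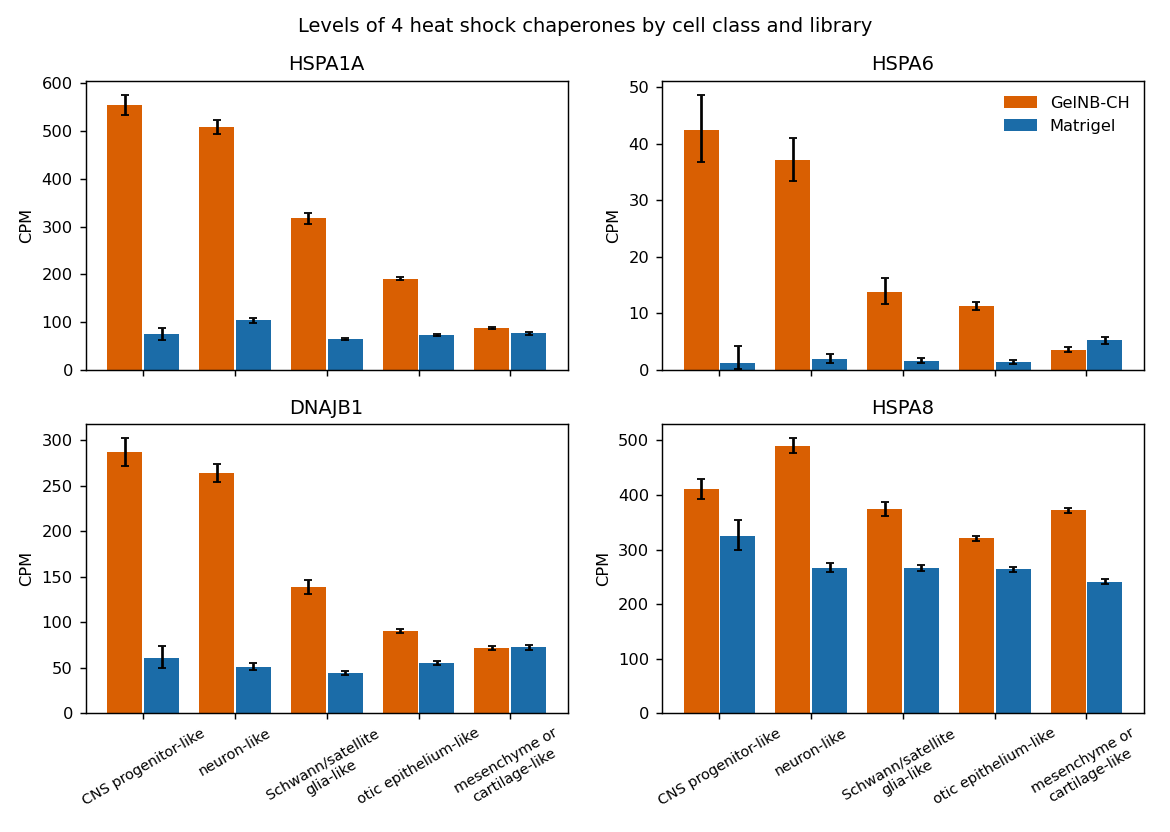
CPM of HSPA1A, HSPA6, DNAJB1 and HSPA8 in each cell class (CNS, central nervous system), with GelNB-CH and Matrigel bars and exact 95% Poisson intervals for counting error. HSPA1A spans 87.7 to 554 CPM over the GelNB-CH classes and 64.6 to 104 CPM over the Matrigel classes, while HSPA8 varies less in both.

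DNAJB1 and HSPA6 had the same order of classes in GelNB-CH as HSPA1A. DNAJB1 was at 287 CPM in GelNB-CH against 61.2 CPM in Matrigel CNS progenitor-like cells (4.68-fold), and at 264 CPM in GelNB-CH against 50.9 CPM in Matrigel neuron-like cells (5.18-fold). In mesenchyme or cartilage-like cells it was at 71.5 CPM in GelNB-CH against 72.4 CPM in Matrigel, a ratio of 0.987 whose interval (0.946 to 1.03) includes 1. HSPA6 had 200 UMIs in GelNB-CH and 2 UMIs in Matrigel CNS progenitor-like cells, a ratio of 35.3 with a wide interval (9.65 to 294). It had 377 UMIs in GelNB-CH and 27 UMIs in Matrigel neuron-like cells (18.6-fold), 137 and 59 UMIs in GelNB-CH and Matrigel Schwann or satellite glia-like cells (8.54-fold) and 830 and 65 UMIs in GelNB-CH and Matrigel otic epithelium-like cells (8.07-fold). In cells of 8000 to 16000 UMIs the HSPA6 ratios of the same classes were smaller except in the otic one. They were 11.9 in CNS progenitor-like, 10.1 in neuron-like, 5.61 in Schwann or satellite glia-like and 11.7 in otic epithelium-like cells. In each class the counting interval overlapped that over all depths, so no change of size with depth can be read. The direction was the same in each. For both genes the GelNB-CH levels of CNS progenitor-like and neuron-like cells had overlapping counting intervals. In mesenchyme or cartilage-like cells HSPA6 was lower in GelNB-CH, with 250 UMIs there and 269 UMIs in Matrigel (ratio 0.673, 0.564 to 0.802), and HSPA1B was lower too (0.863).

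**Figure D2:**
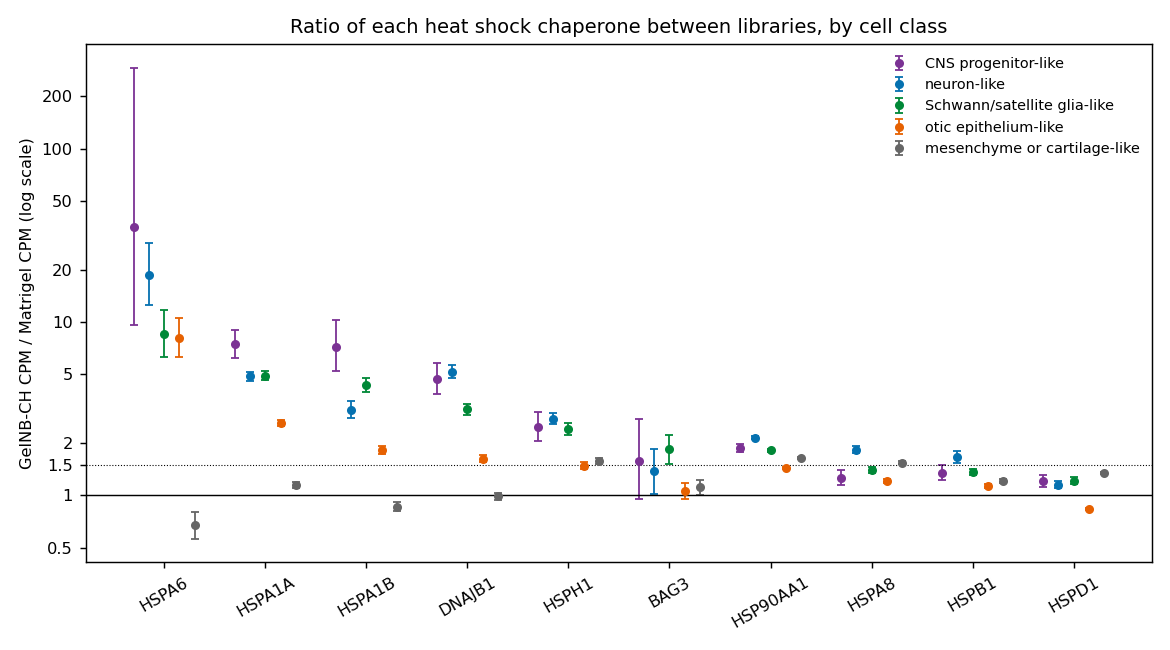
Ratio of GelNB-CH CPM to Matrigel CPM for each of the 10 genes, on a log axis, with 1 point per cell class and exact 95% intervals for counting error; the solid line is 1 and the dotted line 1.5. The mesenchyme or cartilage-like points of HSPA6, HSPA1A, HSPA1B and DNAJB1 lie between 0.673 and 1.15, below those of the other classes, whereas for the other 6 genes the lowest point is the otic one.

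HSPH1 was highest in neuron-like cells, at 241 CPM in GelNB-CH against 87.0 CPM in Matrigel (2.77-fold), and its lowest ratio was 1.49 in otic epithelium-like cells. HSP90AA1 was also highest there, at 2731 CPM in GelNB-CH against 1268 CPM in Matrigel neuron-like cells (2.15-fold), although in the neuron-like clusters compared one by one its ratios were 1.79 and 1.80, and was 1.65-fold higher in GelNB-CH in mesenchyme or cartilage-like cells. HSPA8 ranged narrowly, with ratios between 1.21 in otic epithelium-like cells and 1.84 in neuron-like cells. Within the neuron-like cluster led by STMN2 and STMN4 alone, HSPA8 was at 565 CPM in GelNB-CH against 380 CPM in Matrigel. That gap was smaller than in the neuron-like class as a whole. Its ratio in mesenchyme or cartilage-like cells was 1.54, at 372 CPM in GelNB-CH against 241 CPM in Matrigel. In that class HSPH1 (1.58-fold), HSP90AA1 and HSPA8 therefore differed between the libraries while HSPA1A and DNAJB1 hardly did.

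HSPD1 was lower in GelNB-CH in otic epithelium-like cells, at 377 CPM against 450 CPM in Matrigel (ratio 0.837, 0.822 to 0.852), and higher in GelNB-CH in the other 4 classes, by 1.15-fold to 1.35-fold. HSPB1 was higher in GelNB-CH in all 5, by 1.13-fold to 1.66-fold. BAG3, at no more than 18.0 CPM in any class of either library, had intervals that included 1 in otic and CNS progenitor-like cells, and its largest ratio was 1.85 in Schwann or satellite glia-like cells.

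Counted by class, 7 of 10 genes were higher in GelNB-CH by at least 1.5-fold in CNS progenitor-like cells, against 5.69% of all genes tested in that class. The count was 8 of the 9 with a CPM of at least 10 in neuron-like cells (8.21% of all genes), 7 of 10 in Schwann or satellite glia-like cells (2.19%), 4 of 10 in otic epithelium-like cells (3.08%) and 3 of the 9 tested in mesenchyme or cartilage-like cells (2.03%). The 4 otic genes were HSPA1A, HSPA1B, HSPA6 and DNAJB1, and the 3 mesenchyme or cartilage genes were HSPH1, HSP90AA1 and HSPA8, with HSPH1 (1.49) just short of the limit in otic cells and HSPA6 below the CPM minimum in mesenchyme or cartilage-like cells. Of 9142 genes tested in both classes, 207 were past the limit in the otic class and 155 in the mesenchyme or cartilage class, and 42 were past it in both, 20.3% and 27.1% of the 2 lists.

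Set against HSPA8, which removes any difference in total UMIs, the inducible genes were still higher in GelNB-CH in 4 classes. HSPA1A, HSPA6 and DNAJB1 together had 215 UMIs per 100 HSPA8 UMIs in GelNB-CH and 42.1 in Matrigel CNS progenitor-like cells (5.10-fold). The values were 165 in GelNB-CH and 58.8 in Matrigel neuron-like cells (2.81-fold), 125.5 in GelNB-CH and 41.5 in Matrigel Schwann or satellite glia-like cells (3.02-fold), and 91.4 in GelNB-CH and 49.2 in Matrigel otic epithelium-like cells (1.86-fold). In mesenchyme or cartilage-like cells the order was the opposite, with 43.7 in GelNB-CH and 64.0 in Matrigel (ratio 0.683, 0.664 to 0.703). The summed CPM of the 3 genes was nearly equal there, 163 in GelNB-CH and 154 in Matrigel, while HSPA8 was 1.54-fold higher in GelNB-CH. With HSP90AA1, HSPB1, HSPA8, HSPD1 and HSPH1 summed in place of HSPA8, the ratio of 0.683 became 0.704. That sum is not one of steadily transcribed genes only. HSP90AA1, named above as the inducible HSP90, gave 83198 of its 171567 UMIs in GelNB-CH in this class.

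**Figure D3:**
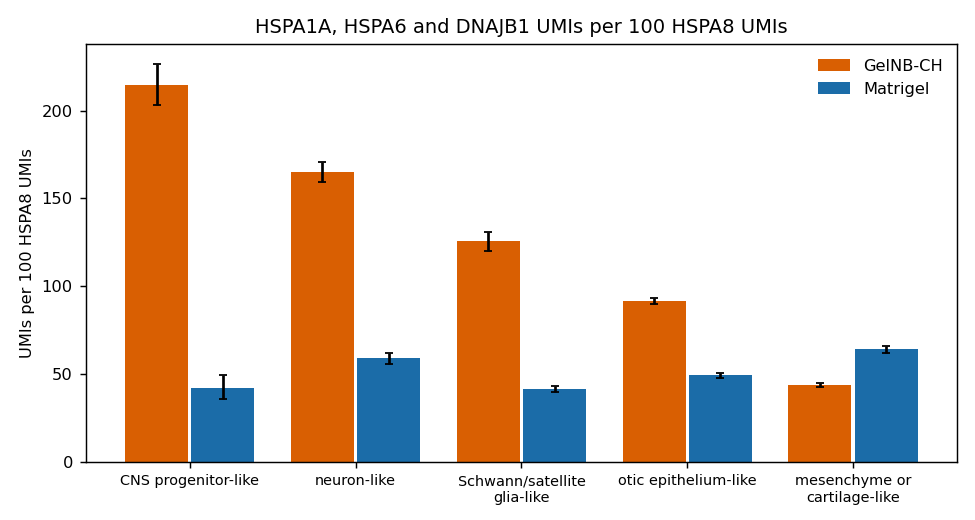
UMIs of HSPA1A, HSPA6 and DNAJB1 together per 100 HSPA8 UMIs in each cell class (CNS, central nervous system), with exact 95% intervals for counting error. The GelNB-CH bars run between 43.7 and 215, the Matrigel bars between 41.5 and 64.0, and the Matrigel bar is the taller one only in mesenchyme or cartilage-like cells.

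The ratios were also taken within single clusters. In 21 clusters with at least 50 cells of each library, HSPA1A was higher in GelNB-CH in 19, DNAJB1 in 18 and HSPA6 in 15, of which 2 had no HSPA6 UMI in Matrigel, while HSP90AA1, HSPH1 and HSPA8 were higher in all 21. The counting interval lay above 1 in 18 clusters for HSPA1A, 14 for DNAJB1 and 12 for HSPA6. It lay below 1 in 2 for HSPA1A and in 1 each for DNAJB1 and HSPA6. For HSP90AA1, HSPH1 and HSPA8 it lay above 1 in all 21. The neuron-like cells of GelNB-CH lay mostly in a cluster led by STMN2 and STMN4 (837 GelNB-CH and 127 Matrigel cells) and those of Matrigel in one led by THSD7B and ANKFN1 (361 and 653 cells). HSPA1A was 5.08-fold higher in GelNB-CH in the cluster led by STMN2 and 4.37-fold in the one led by THSD7B, so the neuron-like ratio was present in both. All 3 Schwann or satellite glia-like clusters had HSPA1A ratios between 4.57 and 6.76.

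The 5 otic clusters covered a wider range. HSPA1A was at 212 CPM in GelNB-CH against 47.4 CPM in Matrigel in the largest, led by LRP2 and OC90 with 2119 GelNB-CH and 292 Matrigel cells (4.46-fold). In that cluster 256 HSPA6 UMIs were counted in GelNB-CH and none in Matrigel, at least 17.3-fold higher against a floor of 3 counts over the Matrigel cells. The ratio of HSPA1A was 3.73 in the cluster led by HBD and CALB1, 3.13 in the one led by KRT17, 1.79 in the cycling cells led by TOP2A and 1.58 in those led by SPX and NPY. The SPX cluster also had the lowest HSPD1 ratio of the 21 (0.665), at 383 CPM in GelNB-CH against 575 CPM in Matrigel.

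Among the 8 mesenchyme or cartilage-like clusters of that size, HSPA1A ratios ran between 0.790 and 1.73. The highest belonged to a cluster of 1027 GelNB-CH and 429 Matrigel cells whose name is uncertain, since it rests on 7 of 15 cartilage markers while its leading genes are CALB1 and MYBPC1, and 51.8% to 54.2% of its cells were named otic epithelium-like under the other clusterings. Without it the ratio in mesenchyme or cartilage-like cells was 1.08 for HSPA1A (1.04 to 1.13), 0.833 at matched depth, 0.630 for HSPA6, 0.979 for DNAJB1 and 1.56 for HSPA8, and the ratio of inducible genes to HSPA8 was 0.652. The lowest HSPA1A ratio belonged to the cluster led by COL3A1 and TGFBI, at 102 CPM in GelNB-CH against 129 CPM in Matrigel (0.709 to 0.881). There HSPA6 was at 4.71 CPM in GelNB-CH against 15.2 CPM in Matrigel (0.310, 0.197 to 0.475) and DNAJB1 at 72.0 CPM in GelNB-CH against 92.6 CPM in Matrigel (0.778). HSPA8 was nonetheless 1.53-fold higher in GelNB-CH in these cells. The Matrigel levels of HSPA1A and HSPA6 in this cluster were the highest of the 21 in that library.

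**Figure D4:**
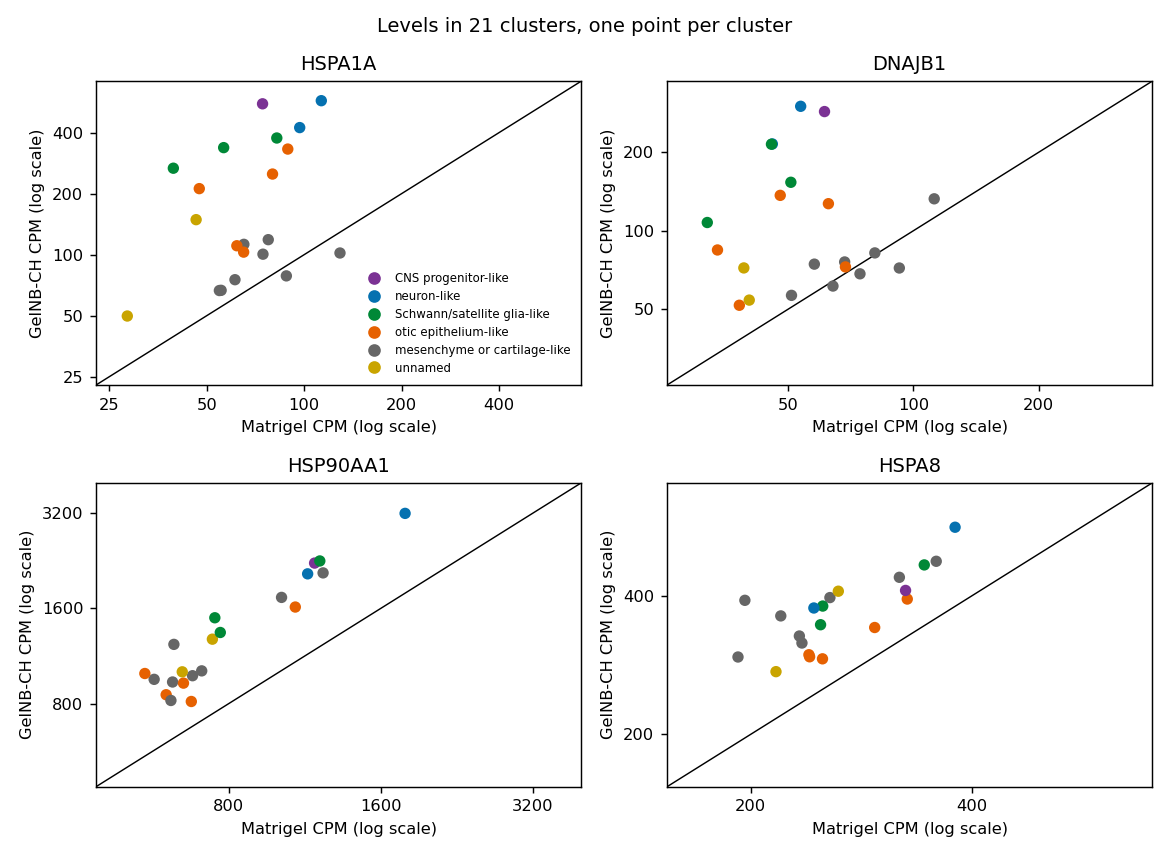
GelNB-CH CPM (vertical) against Matrigel CPM (horizontal), both on log axes, of HSPA1A, DNAJB1, HSP90AA1 and HSPA8 in 21 clusters, coloured by class (CNS, central nervous system), with the line of equal levels. For HSP90AA1 and HSPA8 all 21 points lie above the line, and for HSPA1A 19 do.

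The per-cell counts showed that inducible RNA was unevenly spread. Each cell was thinned to 5000 UMIs, which dropped 1939 cells of GelNB-CH and 418 cells of Matrigel that had fewer. An HSPA1A UMI then lay in 34.6% of GelNB-CH cells (33.9% to 35.4%) and 22.5% of Matrigel cells (21.7% to 23.4%), while without thinning the shares were 46.3% and 43.1%. All classes can express HSPA1A, so none gave a level for free RNA in the droplets, and its part in these shares was not tested. The Fano factor, the variance over the mean and 1 for random counting, was 5.90 in GelNB-CH and 3.02 in Matrigel for HSPA1A. This gap was not shared by all classes. The Fano factor of HSPA1A was lower in GelNB-CH in neuron-like cells (4.72 against 5.52 in Matrigel) and mesenchyme or cartilage-like cells (2.55 against 2.92), and higher in GelNB-CH in otic epithelium-like (5.37 against 2.78), Schwann or satellite glia-like (3.35 against 2.10) and CNS progenitor-like cells (8.72 against 2.59). A Fano factor can grow with the mean, and the thinned mean of HSPA1A was 0.947 UMIs in GelNB-CH and 0.389 UMIs in Matrigel cells. For HSPA8 it was 1.43 in GelNB-CH and 1.42 in Matrigel over all cells. The 10% of cells with the most HSPA1A held 65.4% of its UMIs in GelNB-CH and 67.8% in Matrigel.

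Cells rich in inducible RNA were more frequent in GelNB-CH in the same 4 classes. At least 5 UMIs of HSPA1A, HSPA6 and DNAJB1 together, of 5000, were seen in 33.7% of GelNB-CH and 3.85% of Matrigel neuron-like cells, in 32.9% of GelNB-CH and 1.79% of Matrigel CNS progenitor-like cells, in 17.9% of GelNB-CH and 1.60% of Matrigel Schwann or satellite glia-like cells and in 8.54% of GelNB-CH and 1.66% of Matrigel otic epithelium-like cells. In mesenchyme or cartilage-like cells the shares were 3.03% in GelNB-CH and 2.93% in Matrigel. At 10 UMIs they were 13.5% in GelNB-CH and 0.745% in Matrigel neuron-like cells. A single such UMI or more was present in 47.3% of GelNB-CH and 34.6% of Matrigel otic epithelium-like cells, so at this thinned depth most otic cells had none in either library. Without thinning, 50.4% of GelNB-CH and 46.0% of Matrigel otic epithelium-like cells had an HSPA1A UMI. Thinning evens the UMIs drawn but not the original depth, whose median was 7271 UMIs in GelNB-CH and 14068 UMIs in Matrigel neuron-like cells. The correlation (r) of inducible counts with depth was -0.154 in GelNB-CH neuron-like and -0.147 in GelNB-CH CNS progenitor-like cells. The part of original depth in the shares of cells rich in inducible RNA was not tested.

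**Figure D5:**
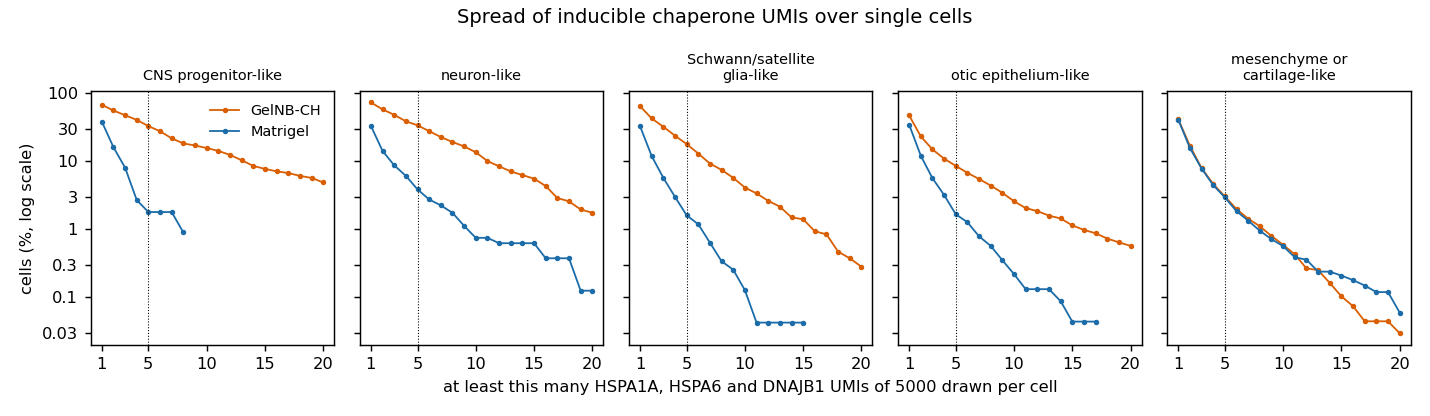
Share of cells (%, log axis) with at least a given number of HSPA1A, HSPA6 and DNAJB1 UMIs among 5000 drawn per cell, by cell class (CNS, central nervous system) and library; the dotted line marks 5 UMIs. Over the 1 to 20 UMIs drawn, the GelNB-CH curve lies above the Matrigel curve in 4 classes. In mesenchyme or cartilage-like cells the curves run together at low counts, with 3.03% in GelNB-CH and 2.93% in Matrigel at 5 UMIs. They part where few cells are left, with 0.103% and 0.207% at 15 UMIs, 7 cells in each library.

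HSPA6 was the most concentrated. Without thinning, it was found in 627 GelNB-CH cells and 156 Matrigel cells, and 89.8% of these cells in GelNB-CH and 74.4% in Matrigel also had an HSPA1A UMI, against 44.7% and 42.6% of cells without HSPA6. These shares pool all classes and depths, so differences in class and depth enter them. A single otic epithelium-like cell of GelNB-CH held 114 HSPA6 UMIs, 5.96% of all in that library, beside 47 HSPA1A UMIs. It set the Fano factor of HSPA6 in GelNB-CH otic epithelium-like cells, which was 15.3 with it and 3.57 without it. Without the highest cell of each library the HSPA6 ratio was 3.78 over all cells. Without the highest cell of the class in each library it was 28.7 in neuron-like and 64.7 in CNS progenitor-like cells, where the Matrigel counts were small.

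Within a class and library, HSPA1A counts per cell went with those of HSPA1B, DNAJB1 and HSP90AA1. Over the 9 combinations of class and library with at least 200 cells, the mean Pearson r of log thinned counts was 0.450 with HSPA1B, 0.362 with DNAJB1, 0.251 with HSP90AA1 and 0.186 with HSPA6. It was 0.083 with HSPA8 and 0.047 with HSPD1. All these cells share a library and sparse counts, and HSPA1A and HSPA1B share sequence, so the values are descriptions. Of the genes outside the 10, those most like HSPA1A among 6941 ranked were JUN, HSPE1, CHORDC1, ACTG1, CACYBP, FOS, JUND and UBB, with r between 0.086 and 0.151. Those most like HSP90AA1 were TUBA1B, PTMA, HMGB1, H2AFZ, HSPE1, STMN1, TUBB and HSP90AB1, with TUBA1B at 0.269.

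Over all cells, 57 other chaperone and HSF genes had a CPM of at least 10. Of these HSPA4L was higher in GelNB-CH by at least 1.5-fold, and HSPA12A, CRYAB and HSPB2 were lower by as much. Among the HSF genes, HSF1, the activator itself, was at 20.3 CPM in GelNB-CH against 21.8 CPM in Matrigel (0.933), HSF2 at 1.00-fold and HSBP1, a negative regulator of HSF1, at 1.09-fold. HSF1 is regulated mainly as a protein, which these counts do not measure. Of 7 other HSP70 and HSP110 genes with a CPM of at least 10, HSPA4L, an HSP110, was 1.71-fold higher in GelNB-CH, HSPA5, the HSP70 of the endoplasmic reticulum, 1.30-fold, HSPA9, that of mitochondria, stood at 0.976, and HSPA12A at 0.640. HSP90B1 of the endoplasmic reticulum was 1.42-fold higher, HSP90AB1, the steadily made HSP90 of the cytosol, 1.18-fold, and TRAP1 of mitochondria stood at 0.923.

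None of 14 other J protein genes was 1.5-fold apart in either direction. DNAJB11, of the endoplasmic reticulum, was 1.37-fold higher in GelNB-CH and DNAJC3, of the same compartment, 1.34-fold, and DNAJB2 and DNAJC1 had ratios of 0.858 and 0.753. HSPE1, the partner of HSPD1, was 1.44-fold higher, and the 8 subunits of the cytosolic chaperonin lay between 0.885 for CCT4 and 1.15 for CCT3. Of 18 co-chaperones CHORDC1 and CACYBP were both 1.29-fold higher, while BAG6 stood at 0.828 and FKBP5 at 0.690. Of the small heat shock genes HSPB11 was at 1.19, and CRYAB and HSPB2 were at 0.566 and 0.267 over all cells. HSPB2 led a cluster of Schwann or satellite glia-like cells, and such cells made up 6.96% of GelNB-CH and 25.4% of Matrigel. Summed over 9 small heat shock genes, HSPB2 and CRYAB included, CPM was 169 in GelNB-CH and 244 in Matrigel over all cells (0.693). Within the Schwann or satellite glia-like class the sum was higher in GelNB-CH, at 1075 CPM against 756 CPM in Matrigel (1.42-fold). The otic (1.31-fold), mesenchyme or cartilage-like (1.26-fold) and CNS progenitor-like classes (1.49-fold) also had higher sums in GelNB-CH. The neuron-like class had a lower one (0.801). The part of the cell shares in the HSPB2 and CRYAB values was not tested.

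Immediate early genes, which dissociation also raises, were set beside the inducible chaperones. The summed CPM of 15 such genes was 2404 in GelNB-CH and 2561 in Matrigel over all cells. It was lower in GelNB-CH in the otic (2506 against 3009 in Matrigel), mesenchyme or cartilage-like (2775 against 3592) and CNS progenitor-like cells (1482 against 2018), and higher in the Schwann or satellite glia-like (1284 against 1134) and neuron-like cells (1601 against 1393). Across cells within a class and library, the log thinned counts of inducible and immediate early genes had Pearson r between 0.033 and 0.265 over the 9 combinations, with the largest in the Schwann or satellite glia-like cells of GelNB-CH. The part of handling in the chaperone values was not tested. The mitochondrially encoded share of UMIs was 1.93% in GelNB-CH and 1.43% in Matrigel otic epithelium-like cells, and 2.69% in GelNB-CH and 1.90% in Matrigel neuron-like cells. The time between dissociation and capture was not stated in the labels, and its part in the values cannot be told apart from that of the hydrogel.

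Hair cell-like cells were few, 16 in GelNB-CH and 12 in Matrigel. HSPA1A had 23 UMIs in the GelNB-CH cells and 7 UMIs in the Matrigel cells, a ratio of 5.29 (2.20 to 14.6), and HSP90AA1 had 517 UMIs in GelNB-CH and 451 UMIs in Matrigel (1.85-fold). HSPA6 had none in either library, at most 3 counts of 240846 UMIs in GelNB-CH and of 388005 UMIs in Matrigel. No order of levels can be read from so few cells.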

How the data were processed

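Single-cell RNA was counted with the 10x 3' assay, version 3.1 chemistry per the labels' protocols. The deposited values are UMI counts per gene and barcode in called cells, not normalised, per the file headers. The counts were made with Cell Ranger, 4.0.0 per the labels' protocols but 7.1.0 per the file headers. STAR and GRCh38 (hg38) are named per the submitters' processing notes, which give no annotation version.

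Barcodes with under 1000 genes or over 15% mitochondrial UMIs (424 of 21743 in GelNB-CH, 413 of 10912 in Matrigel) and doublets called by Scrublet in scanpy 1.11.5 (14.2% and 6.55%) were removed. The libraries hold 247006223 and 178672097 UMIs. Cells were clustered without 82 chaperone genes, from 2000 variable genes, 30 components and 15 neighbours at Leiden resolution 1, into 27 clusters. Names rest on at least 3 markers and a share of 0.3 of a list, limits that were set after the data were seen, and mesenchyme and cartilage were pooled then as well. Kept cells in unnamed clusters numbered 1432 in GelNB-CH and 434 in Matrigel.

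CPM, ratios (exact conditional binomial intervals) and shares (Clopper-Pearson) were computed here from summed counts. With 1 library per group there is no test. Genes counted against a fold limit had a CPM of at least 10 in either library, and the background is the share of all such genes past the same limit. The genes, lists and comparisons were chosen with earlier results of these data known. The genes named beside the 10 are, per list, the 2 largest and 2 smallest ratios and the 8 most like HSPA1A or HSP90AA1. Scripts were tested on simulated data. Intervals came from scipy 1.17.1 and scaling factors from edgeR 4.0.16, run with Python 3.11.15 and R 4.3.3. Promoters are RefSeq's (GRCh38.p14).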

Additional observations from a re-analysis of the deposited data

Results flagged for a closer look

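In 3 cases a gene was lower in GelNB-CH in a class of cells while it was higher in each of the other 4 classes compared, with counting intervals that exclude 1 on both sides. HSPA1B had a ratio of 0.863 (0.815 to 0.914) in mesenchyme or cartilage-like cells and ratios of 1.83 to 7.23 in the other classes. HSPA6 had a ratio of 0.673 (0.564 to 0.802) in mesenchyme or cartilage-like cells and 8.07 to 35.3 in the others. HSPD1 had a ratio of 0.837 (0.822 to 0.852) in otic epithelium-like cells and 1.15 to 1.35 in the others. Without replicates the difference between classes was not tested in any of these cases.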

How the results depend on the processing

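No paired analysis was possible because each group has 1 library. The HSPA1A ratio over all cells (2.50) was 2.55 with all deposited barcodes, 2.55 with doublets kept, 2.44 after thinning to 5000 UMIs, 1.94 in cells of 8000 to 16000 UMIs, 2.73 when the classes were given equal weights in the 2 libraries, 2.65 with TMM factors and 2.27 with HSPA1B added. The ratio of inducible genes to HSPA8 (1.59) was 1.33 in cells of 8000 to 16000 UMIs and 1.54 without the top 1% of cells. It was 1.67 with such weights and 1.53 with HSPA1B added. With HSP90AA1, HSPB1, HSPA8, HSPD1 and HSPH1 summed in place of HSPA8 it was 1.55. The 6 genes at least 1.5-fold higher were 5 or 6 under the other settings. The share of all genes past that limit ran between 1.72% with such weights and 11.8% with no CPM minimum, and was 6.03% in cells of 8000 to 16000 UMIs. At 2-fold the count was 2, where 0.71% of all genes were. The share of GelNB-CH cells with an HSPA1A UMI (34.6%) was 27.0% at 3000 and 41.3% at 8000 UMIs, and the Fano factor of HSPA1A over all cells was higher in GelNB-CH by 2.02-fold and 1.88-fold, although not within neuron-like or mesenchyme or cartilage-like cells at 5000 UMIs. HSPA1A was at least 1.5-fold higher in 4 of 5 classes under every setting except clustering with the chaperone genes kept, which left no class named CNS progenitor-like and gave 3. In mesenchyme or cartilage-like cells alone it changed direction, to 0.903 at matched depth. Matched-depth comparisons, thinning and the removal of top cells by class, and of the highest HSPA6 cell, and leaving out the cluster led by CALB1 and MYBPC1 were chosen after seeing the data. The depth limits HSPA6 most, with 2 UMIs in Matrigel CNS progenitor-like cells.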

Other observations

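Barcodes outside the 5 classes had the same order of libraries for HSPA1A. Those in unnamed clusters are kept cells, so they also count in the values over all cells and partly in the single-cluster ratios. In those that failed the cell filter, HSPA1A was at 149 CPM in GelNB-CH against 36.7 CPM in Matrigel, in those marked as doublets at 201 CPM in GelNB-CH against 75.2 CPM in Matrigel, and in unnamed clusters at 176 CPM in GelNB-CH against 44.3 CPM in Matrigel. The split of reads between HSPA1A and HSPA1B is uncertain. As counted, HSPA1B had 34.6 UMIs per 100 HSPA1A UMIs in GelNB-CH and 47.8 in Matrigel over all cells, with 19.5 in GelNB-CH and 30.3 in Matrigel neuron-like cells and 41.6 in GelNB-CH and 55.2 in Matrigel mesenchyme or cartilage-like cells, but 30.5 in GelNB-CH and 31.5 in Matrigel CNS progenitor-like cells. HSP90AA1 had 84.3 UMIs per 100 UMIs of its steadily made relative HSP90AB1 in GelNB-CH and 62.4 in Matrigel, and in neuron-like cells 218 in GelNB-CH and 139.9 in Matrigel.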
